A study of Mus musculus with 9 samples.

Results

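The promoters of intermediate CpG content are the 2951 proximal promoters, of 14516 protein-coding genes, whose window of 500 bp on both sides of the transcription start site (TSS) held 15 to 39 CpGs with at least 3 reads in *Dnmt3b* KO cells. The TSS was that of the longest isoform of each gene on chromosomes 1 to 4 and 10 to 19 of the mouse genome build mm9. The CpG number alone chose them, and no methylation value was used. Of the other promoters, 3859 held fewer than 15 such CpGs and 7706 held 40 or more. Methylation could be compared between all genotypes at 2911 of the 2951 promoters, and the other 40 lie on chromosome 4 beyond the last position of the WT table.

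In mammals the body of the genome is methylated at CpGs, whereas promoters rich in CpGs, the CpG islands, mostly stay free of methylation. DNMT3A and DNMT3B place methyl groups on unmethylated DNA and DNMT1 copies the pattern after replication. Promoters between the islands and the CpG-poor promoters have been described as the class most often methylated and silenced during development, with many genes of the germline and of differentiated tissues among them.

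The genotypes were compared by whole genome bisulfite sequencing (WGBS), in which bisulfite converts unmethylated cytosines, so that the methylation level of a CpG is the share of its reads that were not converted. All cells were J1 embryonic stem cells (ESCs), a mouse line of the strain 129S4/SvJae, kept on gelatin in medium with serum and LIF. They were wild type (WT), *Dnmt3a*-/- (*Dnmt3a* KO) or *Dnmt3b*-/- (*Dnmt3b* KO), with 3 libraries for each of the 3 genotypes. The sources used here do not say how many clones stand behind a genotype, and the authors merged the 3 libraries, so that each genotype gives 1 value per CpG and differences between clones cannot be told apart from differences between genotypes. No test across replicates was possible, and every interval below covers counting error only.

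The longest stretch of CpGs without a read was 12 CpGs within *Dnmt3a* in *Dnmt3a* KO and 30 CpGs within *Dnmt3b* in *Dnmt3b* KO ESCs, where the other genotypes had means of 16.8 to 31.5 reads. The 2911 promoters held 70838 CpGs with at least 3 reads in all genotypes, counted per promoter. At the median promoter a CpG was covered by 22.5 reads in WT, by 20.4 without DNMT3A and by 22.1 without DNMT3B. At this depth the 95% Wilson interval of a promoter's share of methylated reads extended by a median of 2.72 to 3.18 percentage points to each side. The mean level on the plus strand and on the minus strand differed by a median of 4.30 to 5.14 points. A total of 5 promoters had a mean depth above 200 reads per CpG in WT and held 98.7% of all WT reads over the set, so that means over CpGs, and not over reads, were used.

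The sequence in the windows lay between that of the other classes. The median GC content was 51.4% (quartiles 47.8% and 54.6%), against 45.4% at promoters with fewer CpGs and 61.3% at promoters with more. The median ratio of observed to expected CpGs was 0.385, against 0.175 and 0.770. By the criteria of Weber and colleagues, which scan windows of 500 bp for a ratio of at least 0.75 with at least 55% GC, or for a ratio of at least 0.48, 1706 of the 2951 promoters were intermediate, 1165 were low and 80 were high. The name therefore follows the CpG number, and 1706 of the promoters also hold it under that scheme. In the reference sequence 79 of the windows hold 40 or more CpGs, not all of which were covered.

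The following stretches show 6 of these promoters, namely the pairs with the largest decrease without DNMT3A or without DNMT3B, and the promoters with the highest and the third highest level left in *Dnmt3a* KO ESCs among named genes. No stretch is shown for *Zscan30*. Each stretch is the 250 bases before the TSS in the mm9 reference, written 5′ to 3′ on the strand of the gene, with every CpG in capitals. The stretches lie at chr4:100151215-100151464 (plus strand, *Ube2u*), chr16:22918205-22918454 (plus, *Fetub*), chr19:9633739-9633988 (minus, *Stxbp3b*), chr11:67611523-67611772 (plus, *Dhrs7c*), chr17:59152796-59153045 (minus, *Nudt12*) and chr4:43666425-43666674 (minus, *Spag8*). None of these TSSs lies within another protein-coding gene.
Ube2u: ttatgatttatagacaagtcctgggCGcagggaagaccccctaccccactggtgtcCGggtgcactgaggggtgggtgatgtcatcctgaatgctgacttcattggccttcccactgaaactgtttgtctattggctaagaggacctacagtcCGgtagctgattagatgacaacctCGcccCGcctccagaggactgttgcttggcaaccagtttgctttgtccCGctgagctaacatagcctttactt
Fetub: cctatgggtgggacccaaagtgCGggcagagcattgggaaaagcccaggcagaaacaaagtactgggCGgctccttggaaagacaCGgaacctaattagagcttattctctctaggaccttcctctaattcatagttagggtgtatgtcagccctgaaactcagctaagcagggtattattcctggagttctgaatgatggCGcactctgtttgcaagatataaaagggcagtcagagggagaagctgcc
Stxbp3b: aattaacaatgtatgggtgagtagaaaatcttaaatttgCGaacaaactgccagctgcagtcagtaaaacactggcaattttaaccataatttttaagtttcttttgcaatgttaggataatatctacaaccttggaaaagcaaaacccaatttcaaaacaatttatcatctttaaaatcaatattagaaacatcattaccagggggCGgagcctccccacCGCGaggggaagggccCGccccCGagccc
Dhrs7c: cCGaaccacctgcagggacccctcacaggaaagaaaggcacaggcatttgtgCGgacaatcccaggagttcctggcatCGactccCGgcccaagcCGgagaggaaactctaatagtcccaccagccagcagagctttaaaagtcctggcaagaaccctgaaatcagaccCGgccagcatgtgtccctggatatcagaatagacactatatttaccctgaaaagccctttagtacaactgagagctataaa
Nudt12: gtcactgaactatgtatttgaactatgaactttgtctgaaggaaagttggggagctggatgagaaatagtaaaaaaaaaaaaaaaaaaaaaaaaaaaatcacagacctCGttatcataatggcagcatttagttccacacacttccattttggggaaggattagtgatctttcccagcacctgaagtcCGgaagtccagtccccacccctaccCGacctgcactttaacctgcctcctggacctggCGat
Spag8: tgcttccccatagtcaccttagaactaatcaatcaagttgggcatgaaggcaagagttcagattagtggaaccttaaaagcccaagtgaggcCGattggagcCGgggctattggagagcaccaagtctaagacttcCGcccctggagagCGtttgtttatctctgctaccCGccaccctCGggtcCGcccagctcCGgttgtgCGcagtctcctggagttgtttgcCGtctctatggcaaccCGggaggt

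Over the 6 CpGs of the *Ube2u* stretch the mean level was 85.5% in WT, 40.05% in *Dnmt3b* KO and 0% in *Dnmt3a* KO ESCs. In *Dnmt3a* KO ESCs none of 121 reads was methylated, where a read is counted at each CpG it covers, as in all read numbers here. If these counts were independent, a share of up to 2.48% would be allowed. They are not, so that the true limit is looser. The 4 CpGs of the *Fetub* stretch had means of 83.0% in WT, 11.3% without DNMT3A and 84.3% without DNMT3B. The 6 CpGs of the *Dhrs7c* stretch, no fewer than those of *Ube2u*, had means of 92.8%, 88.1% and 92.5%. The 6 CpGs of the *Stxbp3b* stretch had 97.2%, 77.1% and 77.1%, the last from only 36 reads. In the *Nudt12* stretch 4 CpGs had 62.1%, 5.77% and 10.4%, from only 55, 39 and 34 reads. The *Spag8* stretch holds 11 CpGs, and here both KOs were low, with means of 65.7% in WT, 2.32% without DNMT3A and 5.51% without DNMT3B. The *Ube2u* and *Dhrs7c* stretches, both with 6 CpGs, lay at opposite ends of the scale in *Dnmt3a* KO ESCs. These promoters were chosen for a large decrease and for a high level there, so that the contrast comes with the choice.

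In WT ESCs the promoters of intermediate CpG content held a methylated and an unmethylated group, with many promoters at levels between them. A methylation level of 80% or more was found at 1236 of the 2911 promoters (42.5%) and a level under 20% at 826 (28.4%). The ranges between each held fewer, with 505 promoters from 20% to under 50% and 344 from 50% to under 80%. The median was 62.6% with quartiles of 16.6% and 91.3%. In *Dnmt3a* KO ESCs the median was 15.4%, with quartiles of 2.70% and 51.3%, and in *Dnmt3b* KO ESCs it was 43.1%, with quartiles of 9.45% and 84.1%. Promoters at 80% or more numbered 10 without DNMT3A and 909 without DNMT3B, and promoters under 20% numbered 1560 and 1118. The high group of WT was thus nearly absent in *Dnmt3a* KO ESCs and largely present in *Dnmt3b* KO ESCs.

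**Figure D1:**
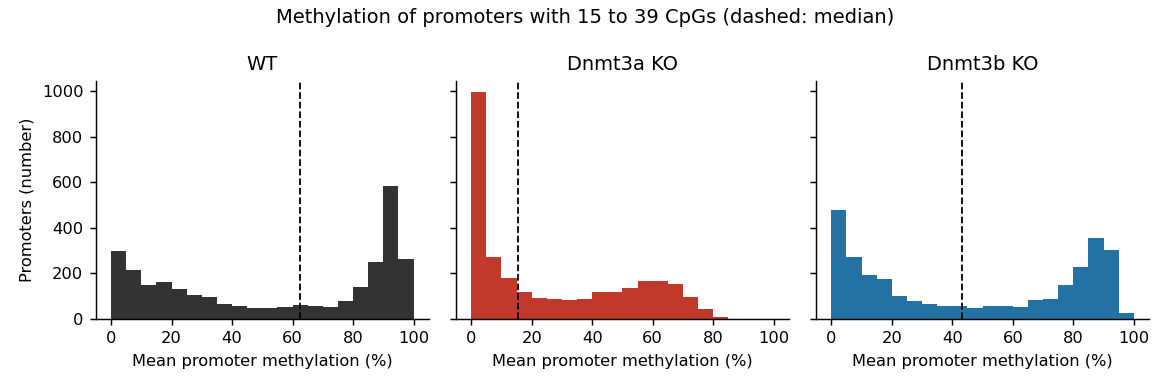
Number of promoters with 15 to 39 CpGs by mean promoter methylation (percent, bins of 5 points) for the 3 genotypes, with the median as a dashed line. WT has a low and a high group, the high group has moved to intermediate levels in *Dnmt3a* KO, and 909 promoters lie at 80% or more in *Dnmt3b* KO ESCs.

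Methylation was lower in *Dnmt3a* KO than in WT ESCs at most of these promoters. The median difference from WT was -27.4 percentage points, with quartiles of -41.9 and -12.4 points, and the range was from -82.4 to 3.49 points. A promoter was called lower where its mean had fallen by over 20 points and the 95% Newcombe interval of the difference in read shares lay below 0. In *Dnmt3a* KO ESCs 1840 of the 2911 promoters (63.2%) were called lower, against 34% of all 13233 promoters measured, 91.5% of those with fewer CpGs and 2.00% of those with more. By the same rule 0 of them were called higher in either KO, against 0% of all promoters without DNMT3A and 0.0151% without DNMT3B. Since a promoter under 20% cannot fall by over 20 points, the calls could arise only at the promoters at 20% or more in WT. There, 71.5% of the promoters from 20% to under 50% were called lower, 94.8% of those from 50% to under 80% and 93.3% of those at 80% or more.

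Methylation was lower in fewer of them, and by less, without DNMT3B. The median difference from WT was -6.61 points, with quartiles of -12.2 and -2.62 points, and the range was from -53.5 to 11.7 points. In *Dnmt3b* KO ESCs 258 of the 2911 promoters (8.86%) were called lower, against 3.53% of all promoters measured, 6.69% of those with fewer CpGs and 0.343% of those with more. The calls were most frequent at promoters from 50% to under 80% in WT, where 135 of 344 (39.2%) were called, and less frequent at 80% or more, with 82 of 1236 (6.63%), and from 20% to under 50%, with 41 of 505 (8.12%). Of the promoters from 50% to under 80% in the other classes, 12.5% of 281 with fewer CpGs and 38.9% of 36 with more were called. The interval of the difference lay below 0 at 2068 promoters (71.0%, against 54% of all promoters) in *Dnmt3b* KO and at 2762 (94.9%, against 76.9%) in *Dnmt3a* KO ESCs. It lay above 0 at 37 (1.27%, against 2.19%) and at 3 (0.103%, against 0.892%).

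**Figure D2:**
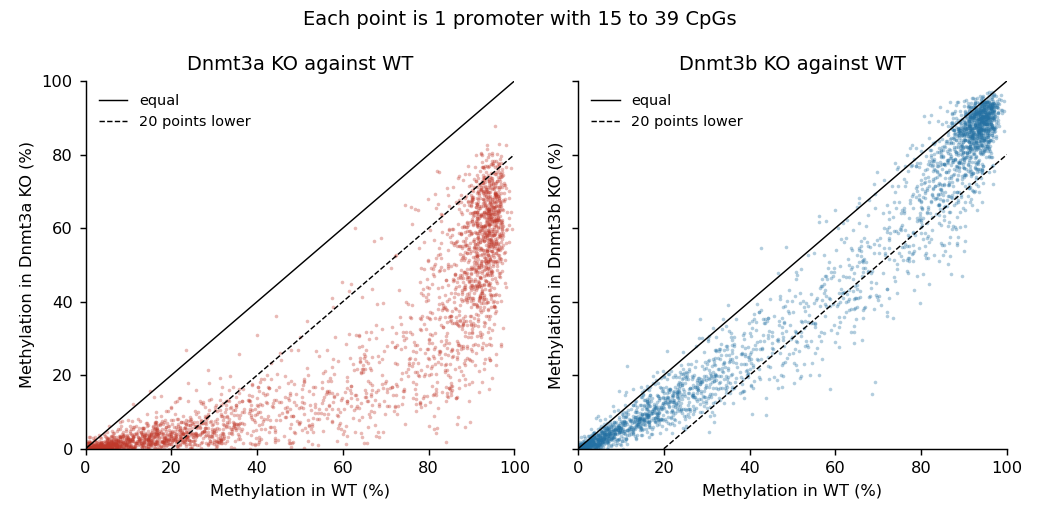
Mean methylation (percent) of each of the 2911 promoters in *Dnmt3a* KO (left) and *Dnmt3b* KO (right) against WT ESCs, with 1 point per promoter. The solid line marks equal levels and the dashed line a level 20 points lower. Of the points, 1840 on the left and 258 on the right were called lower by over 20 points.

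The methods of the study call differentially methylated cytosines (DMCs) where the credible interval of the difference lies beyond 0.2, and regions (DMRs) from more than 3 consecutive CpGs of the same state within 300 bp, taken here as at least 4 covered DMCs in a row, each within 300 bp of the one before. The level of that interval is not given in the text used here, and 95% was used. By this rule 783 promoters (26.9%) held a hypomethylated DMR in *Dnmt3a* KO, against 10.6% of all promoters measured, and 31 (1.06%) in *Dnmt3b* KO ESCs, against 0.31%. The shares were 12.1% and 0.0366% at promoters with fewer CpGs and 3.81% and 0.119% at those with more. A run of 4 DMCs needs enough covered CpGs, so that these shares depend on CpG number. Hypermethylated DMRs were found at 0 of the 2911 promoters in either KO, against 0% of all promoters without DNMT3A and 0.0151% without DNMT3B. Of the CpGs tested in these windows, 22.5% were hypomethylated DMCs without DNMT3A and 3.56% without DNMT3B, against 32.1% and 2.49% at promoters with fewer CpGs and 1.51% and 0.418% at those with more. The number of DMRs depends on the run and on the interval that are asked for. With 3 consecutive CpGs 1180 and 77 promoters held one, and with a 99% credible interval 480 and 4 did.

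Within nearly all promoters *Dnmt3a* KO was the lower of the KOs. Its mean was below that of *Dnmt3b* KO at 2791 promoters (95.9%, against 83.6% of all promoters measured), above it at 110 (3.78%, against 15.7%) and equal at 10, and the median difference between the KOs was 18.3 points. *Dnmt3b* KO was below *Dnmt3a* KO by over 10 points at 2 promoters, or 0.0687% of the set, against 0.0151% of all promoters measured, and both are named here after their values were seen. *2610528J11Rik* had 44.4% in WT, 36.1% without DNMT3A and 18.9% without DNMT3B, a difference between the KOs of -17.3 ± 5.64 points (95% interval of counting error over 18 CpGs). *BC066135* had 23.5%, 26.9% and 15.6%, a difference of -11.4 ± 5.01 points.

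Levels fell steeply with CpG number within the class. At promoters with 15 to 19 CpGs the WT median was 89.9%, with 48.04% without DNMT3A and 82.2% without DNMT3B. At 25 to 29 CpGs the medians were 32.2%, 7.11% and 20.2%, and at 35 to 39 CpGs they were 11.7%, 2.20% and 6.94%. The share of promoters at 80% or more in WT went from 71.1% at 15 to 19 CpGs through 30.3% at 25 to 29 to 4.48% at 35 to 39, and the share under 20% from 6.37% to 69.3%. At the limits of the class, promoters with 14 CpGs had a WT median of 90.1% and those with 15 CpGs of 90.5%, while those with 39 and with 40 CpGs had 8.67% and 5.84%. The share called lower in *Dnmt3b* KO ESCs stayed between 5.42% and 10.4% over all bins, whereas that in *Dnmt3a* KO ESCs went from 85.1% to 23.8%.

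**Figure D3:**
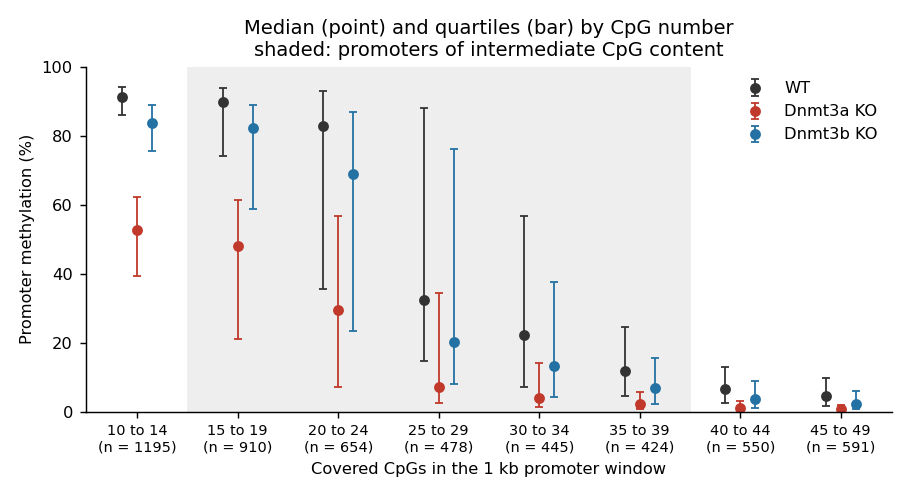
Median promoter methylation (percent, points) with quartiles (bars) by number of covered CpGs in the window in each genotype, with the number of promoters under each bin. Within the shaded bins of 15 to 39 CpGs the WT median falls from 89.9% to 11.7% and the *Dnmt3a* KO median lies below both others in each bin.

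Among the methylated promoters alone, levels changed less with CpG number. At 80% or more in WT, the WT median lay between 90.2% and 92.7% in every bin, the *Dnmt3a* KO median fell from 56.2% at 15 to 19 CpGs to 47.9% at 30 to 34 CpGs, and at 35 to 39 CpGs, with 19 promoters only, it was 44.1%. The *Dnmt3b* KO medians of the same promoters were 86.4%, 81.6% and 79.2%. Values within the same range of WT levels can be set beside those of the other classes. At 80% or more in WT, with WT medians of 92.3% in the class and 91.7% at the 2372 promoters with fewer CpGs, the *Dnmt3a* KO median was 55.1% in both, and the *Dnmt3b* KO median was 86.1% against 84.8%. The 16 promoters with more CpGs in this range had lower medians, with 90.1% in WT, 38.8% without DNMT3A and 76.7% without DNMT3B. From 50% to under 80% in WT the *Dnmt3a* KO median was 17.7%, against 33.4% at the 281 promoters with fewer CpGs and 24.0% at the 36 with more. The WT medians in this range were not matched, with 66.0% in the class, 73.2% at the promoters with fewer CpGs and 63.0% at those with more. The differences between classes were not tested, since a genotype has 1 pooled value.

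The share of its own WT level that a promoter kept without DNMT3A was higher at promoters of 50% or more in WT. The median promoter kept 59.6% of its level in *Dnmt3a* KO ESCs where WT was at 80% or more, 27.2% from 50% to under 80% and 19.4% under 20%. The share under 20% is a ratio of values near 0, with medians of 7.20% in WT and 1.29% in *Dnmt3a* KO ESCs, and is less certain. From 20% to under 50% the share kept was slightly below the 19.4% of the lowest group, so that the order did not continue below 50%. In *Dnmt3b* KO ESCs the shares kept in the 4 groups, from the highest WT level to the lowest, were 93.1%, 74.0%, 62.6% and 55.7%. Of the 344 promoters from 50% to under 80% in WT, 191 fell under 20% without DNMT3A and 7 without DNMT3B. Of the 505 from 20% to under 50%, 494 and 288 fell under 20%. Of the 1236 at 80% or more, 49 fell under 20% in *Dnmt3a* KO and none did in *Dnmt3b* KO ESCs, while 742 came to lie from 50% to under 80% and 326 did so without DNMT3B. In *Dnmt3a* KO ESCs the promoters of middle levels thus mostly came to lie under 20%, and those of high levels mostly between 20% and 80%.

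Around the TSS the profiles differed between these groups. At promoters under 20% in WT, the mean over CpGs within 100 bp upstream of the TSS was 3.799% in WT, 0.760% without DNMT3A and 2.15% without DNMT3B, and 3 kb upstream it was 70.1%, 37.6% and 62.6%. At promoters from 20% to under 50% the same bins had 20.2%, 3.39% and 10.7% at the TSS and 72.5%, 36.8% and 64.1% at 3 kb. At promoters of 80% or more the levels were 90.6%, 46.8% and 82.2% beside the TSS and 82.9%, 47.6% and 75.9% at 3 kb. There *Dnmt3a* KO had a shallow local minimum at the TSS, between 53.5% in the bin from 700 bp upstream and 55.7% in that from 300 bp downstream, while WT had 90.3% and 92.0% in these bins. Farther away *Dnmt3a* KO was again as low, with 45.9% in the bin from 1200 bp downstream. At promoters from 50% to under 80% the level beside the TSS was 58.7% in WT against 80.2% at 3 kb, 15.02% against 45.3% in *Dnmt3a* KO, and 40.2% against 70.6% in *Dnmt3b* KO ESCs.

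**Figure D4:**
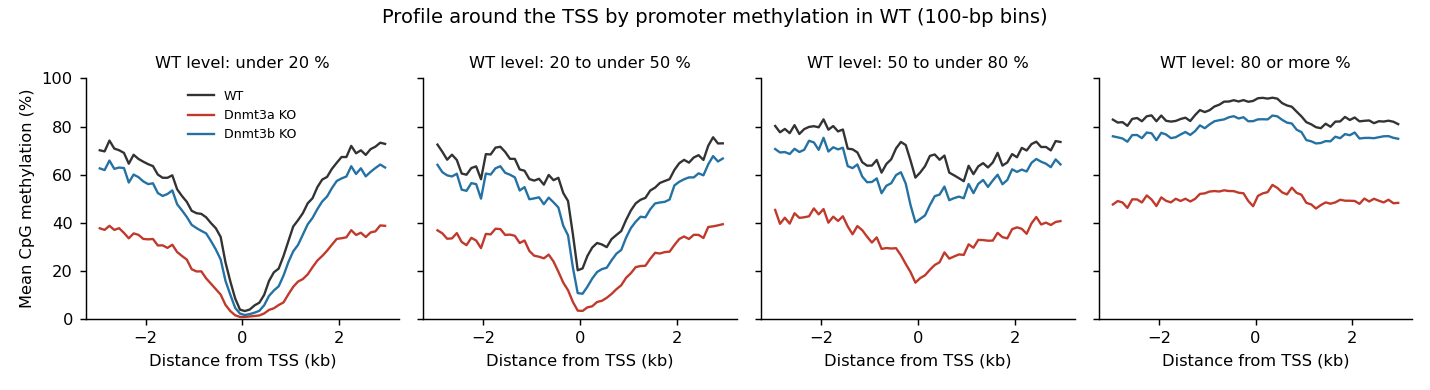
Mean CpG methylation (percent) in bins of 100 bp by distance from the TSS (kb, upstream negative) in each genotype, with 1 panel for each level of the promoter in WT. All genotypes dip at the TSS in the 3 panels of lower WT level. At 80% or more *Dnmt3a* KO lies between 45.9% and 55.7% in every bin. It has a shallow local minimum of 46.8% just upstream of the TSS, and the lowest bin lies farther away.

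The surrounding sequence was methylated at most promoters, also where the promoter itself was not. Upstream of the window, as far as 3000 bp from the TSS, the median was 88.6% in WT, 48.9% without DNMT3A and 81.2% without DNMT3B, and over the same distance beyond the window into the gene it was 86.3%, 44.2% and 77.9%. At promoters under 20% in WT the upstream region still had 83.9%, 40.3% and 73.9%. The mean of the upstream region was lower than WT by over 20 points at 90.6% of the promoters without DNMT3A and 2.66% without DNMT3B. Within the window itself the share in *Dnmt3b* KO ESCs was higher, 12.4% in the 500 bp before the TSS and 11.8% in the 500 bp after it. The share for the flanks rests on longer regions.

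Single CpGs of the most methylated promoters took middle levels more often without DNMT3A, and those of less methylated promoters less often. Where WT was at 80% or more, the median share of CpGs from 20% to under 80% was 9.09% in WT, 69.6% without DNMT3A and 24.0% without DNMT3B, and the median SD over the CpGs of a promoter was 9.53, 21.6 and 14.5 points. Where WT was from 20% to under 50%, the share was 40.6% in WT, 10.5% without DNMT3A and 27.0% without DNMT3B, with an SD of 30.3, 12.05 and 25.6 points. Values between 0% and 100% at a CpG are averages over cells and alleles, and over the merged libraries, and these cannot be told apart here.

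Among the 1236 promoters at 80% or more in WT, the level kept in *Dnmt3a* KO ESCs went with that of the surroundings. When they were divided into 4 groups of similar size by the *Dnmt3a* KO level beyond the window into the gene, the promoter medians in *Dnmt3a* KO ESCs were 44.4%, 52.7%, 58.2% and 61.6%, while the WT medians were 90.3%, 92.0%, 92.8% and 93.5%. By the upstream level they were 47.8%, 53.0%, 58.8% and 59.3%. By GC content they were 57.2% in the lowest group and 50.8% in the highest, and by the ratio of observed to expected CpGs 54.6% and 55.5%. Promoters of genes with a single-exon longest isoform, such as olfactory receptors and retrocopies, had a median of 60.8% in *Dnmt3a* KO ESCs (n = 361), against 52.1% for genes with more exons (n = 875), with WT medians of 92.9% and 92.1%. Promoters within another protein-coding gene had 54.8% and the others 55.1%. These groups share libraries and neighbouring CpGs and are given without a test.

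The base that followed the CpG on the strand read was associated with the size of the loss. DNMT3A and DNMT3B are known to differ in the flanking bases they prefer in vitro. At promoters of 80% or more in WT, CpGs with at least 5 reads on the strand in every genotype had WT means of 92.3% when followed by C, 91.1% by T, 92.2% by G and 91.5% by A. In *Dnmt3a* KO ESCs the means were 49.1%, 49.9%, 56.3% and 54.9% in the same order, which are differences of -43.2, -41.2, -35.8 and -36.7 points. In *Dnmt3b* KO ESCs the loss was smallest after C and largest after A, with 86.8%, 83.8%, 83.6% and 81.8%, or differences of -5.55, -7.38, -8.61 and -9.72 points. The loss at CGC was larger than at CGG in *Dnmt3a* KO ESCs on 14 of 14 chromosomes, and the loss at CGG was larger than at CGC in *Dnmt3b* KO ESCs on 14 of 14. For CGT against CGA in *Dnmt3a* KO and for CGA against CGT in *Dnmt3b* KO ESCs the counts were 14 and 13 of 14.

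With the bases on both sides, the largest loss in *Dnmt3a* KO ESCs was at ACGT, where the mean went from 90.1% to 43.1%, and the smallest at TCGG, from 92.1% to 59.6%. In *Dnmt3b* KO ESCs the largest was at TCGA, from 91.4% to 77.4%, and the smallest at GCGC, from 93.1% to 88.2%. The base before a CpG is the complement of the base after it on the other strand, so that both descriptions rest on the same sites. At promoters with fewer CpGs and 80% or more in WT the differences after C, T, G and A were -39.8, -39.8, -33.8 and -34.7 points in *Dnmt3a* KO and -4.62, -7.31, -6.69 and -9.58 points in *Dnmt3b* KO ESCs. At the 16 promoters with more CpGs and 80% or more in WT they were -45.2, -46.8, -37.1 and -38.5 points, and -9.59, -12.7, -12.03 and -11.5 points, so that in *Dnmt3b* KO ESCs the loss after A was not the largest there. Chromosomes are parts of the same libraries and are not replicates, and a base effect of conversion or amplification in the merged libraries was not tested.

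Promoter motifs were searched from 250 bases before the TSS to 50 after it, on both strands, and compared with all 13233 promoters. The GC box GGGCGG, bound by Sp1 family factors, was found in 26.6% of the 2911 promoters and in 48.97% of all promoters. Within the class it was found in 40.4% of promoters under 20% in WT, 41.0% from 20% to under 50%, 27.3% from 50% to under 80% and 11.3% at 80% or more, and its own CpG ties it to CpG number. It was found in 29.8% of the 258 promoters called lower in *Dnmt3b* KO ESCs, 41 of which were under 50% in WT, and in 13.1% of the 1363 promoters at 50% or more in WT that were not called, so that these sets differ in WT level. CCAAT was found in 37.3% of the class and 37.0% of all promoters, and TATAAA, from 40 to 20 bases before the TSS on the strand of the gene, in 2.58% and 2.15%. CACGTG was found in 6.66% against 8.61%, TTCCCGC in 2.99% against 6.34% and TGACGTCA in 1.37% against 2.36%. None of the motifs contains another of them, and a match of letters does not show that a factor is bound.

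The promoters with the largest decreases without DNMT3A went from the high to the low group. *Ube2u*, for a ubiquitin-conjugating enzyme, had 88.5% in WT, 6.06% without DNMT3A and 55.4% without DNMT3B, a difference of -82.4 ± 4.88 points in *Dnmt3a* KO. *Fetub*, for the fetuin B secreted by the liver, had 89.7%, 7.41% and 82.0%. *Fbp2*, for the muscle fructose bisphosphatase, had 84.0%, 1.97% and 66.2%. *Sh2d4b* had 86.5%, 6.73% and 75.8%, *Casp14*, the caspase of the epidermis, had 94.1%, 16.2% and 75.8%, and *Serpinb6c*, for a serine protease inhibitor, had 81.8%, 4.30% and 44.9%. They were chosen by the size of this decrease, so that a high start and a low end come with the choice. All 6 held a DMR in *Dnmt3a* KO, against 26.9% of the class, and this rests on the same reads. *Ube2u* and *Serpinb6c* were also called lower in *Dnmt3b* KO ESCs.

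The largest decreases without DNMT3B all lay at promoters that had also lost methylation without DNMT3A. All 6 were at 50% or more in WT. There, 94.8% (50% to under 80%) and 93.3% (80% or more) of the class were called lower without DNMT3A. *Nudt12*, for a Nudix hydrolase of NADH, had 68.5% in WT, 3.15% without DNMT3A and 15.0% without DNMT3B, a difference of -53.5 ± 4.70 points in *Dnmt3b* KO. *Spag8*, a sperm-associated antigen, had 69.3%, 16.5% and 18.0%, and the KOs differed by 1.54 ± 3.93 points, which is within counting error. *Hus1b*, a paralogue of the checkpoint clamp gene *Hus1* that lies inside *Exoc2*, had 89.6%, 24.0% and 47.1%. *Celf3*, for an RNA-binding protein of the brain, had 79.6%, 43.9% and 39.6%, and its KOs differed by -4.27 ± 6.67 points. *Serpinb6c* was also among these 6, and *Slfn9*, of the Schlafen family, had 66.2%, 9.40% and 29.5%. A difference between the KOs was thus not detectable at this depth at *Spag8* and *Celf3*.

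The highest level left in *Dnmt3a* KO ESCs was 87.7% at *A730068I03Rik*, a gene with a clone name. With predicted genes and clone names left out, the 6 promoters with the highest levels differed from WT by -15.6 to -11.03 points. *Stxbp3b* had 96.5% in WT, 82.9% without DNMT3A and 92.2% without DNMT3B. The zinc finger gene *Zscan30* had 98.1%, 82.5% and 95.1%. *Dhrs7c*, for a muscle dehydrogenase, had 93.6%, 82.5% and 83.8%. *Krt32*, a hair keratin, had 93.6%, 81.6% and 91.5%, *Krt6a*, a keratin of stratified epithelia, had 94.8%, 79.995% and 91.0%, and *Rps2-ps5*, a single-exon copy of a ribosomal protein gene, had 94.7%, 80.5% and 87.0%. The last of these can share reads with other copies of its parent gene, and weighting by reads gave a difference of -22.99 points in *Dnmt3a* KO. Upstream of the window these 6 promoters had 50.9% to 68.2% in *Dnmt3a* KO ESCs, where the median of the class was 48.9%. All 6 were at 80% or more in WT, and the upstream median of such promoters was 55.5%, so that their values lay on both sides of it. They were chosen by the level of the promoter itself, so that lower flanks come with the choice.

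**Figure D5:**
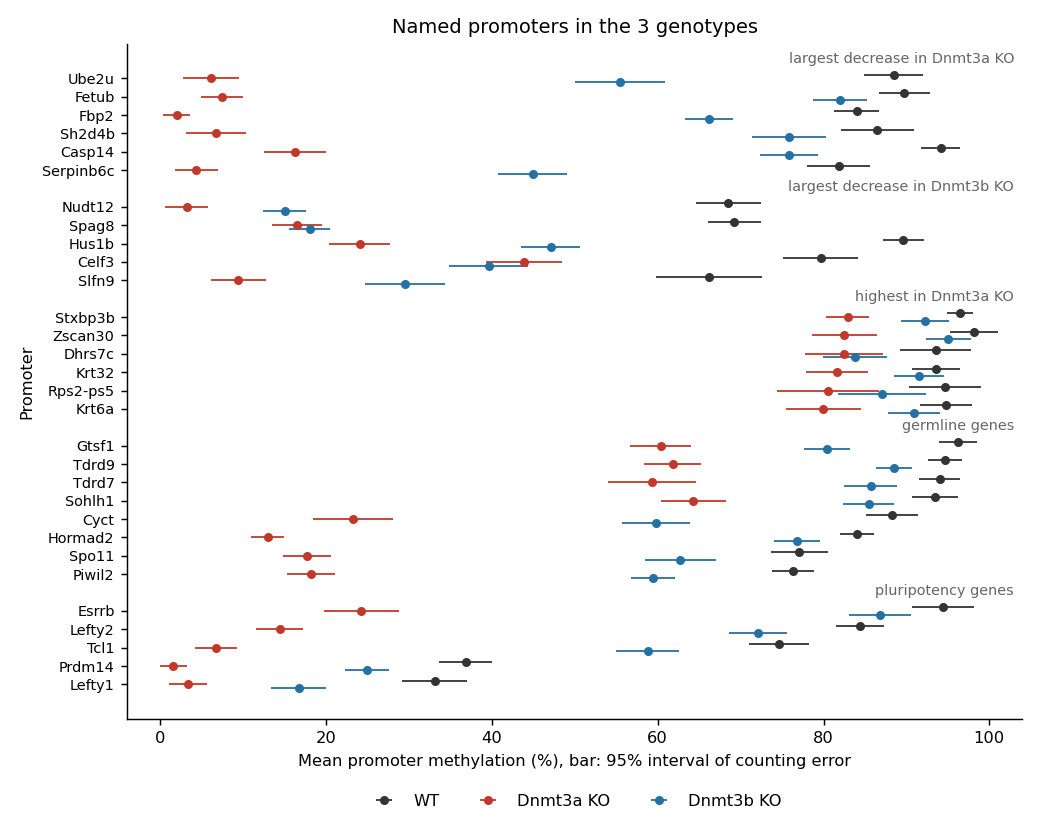
Mean promoter methylation (percent, points) with the 95% interval of counting error (bars) in each genotype for named promoters, grouped by the rule that chose them. *Dnmt3a* KO lies between 1.97% and 16.2% at the 6 promoters ranked by its decrease, and between 79.995% and 82.9% at those ranked by its level. At the promoters ranked by the decrease in *Dnmt3b* KO it lies between 3.15% and 43.9%.

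Few promoters had a lower mean in *Dnmt3b* KO than in *Dnmt3a* KO ESCs, and the differences among the named ones were small. *Neurod2*, a neuronal transcription factor, had 11.2% in WT, 12.1% without DNMT3A and 2.72% without DNMT3B, and the KOs differed by -9.36 ± 5.45 points. *Lysmd1* had 14.9%, 15.6% and 10.8%, a difference of -4.85 ± 2.85 points. *Ramp3*, for a receptor activity modifying protein, had 7.98%, 7.34% and 3.24%, a difference of -4.10 ± 3.99 points. *Mfap2*, for a protein of elastic microfibrils, had 67.3%, 56.5% and 50.9%, and its *Dnmt3b* KO level was above WT when only the 7 CpGs with at least 10 reads were used. At *Mfap2*, *Zfp456* and *Celf3* the interval of the mean difference between the KOs contained 0. By read shares the Newcombe interval at *Mfap2* was from -21.6 to -8.42 points.

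No mean level increased by over 20 points in either KO. In *Dnmt3a* KO ESCs the largest increase of a mean level in the class was 3.49 ± 5.04 points at *BC066135*. Clone names left aside, *Lhx9*, *Cnpy2* and *Zfp931* followed with 2.05 ± 5.17, 1.36 ± 2.15 and 1.31 ± 3.68 points. These intervals of the mean levels contained 0. By read shares the Newcombe interval lay above 0 at 3 promoters, which are named after their values were seen. *BC066135* went from 23.8% to 29.6% of reads, a difference of 5.85 points with an interval from 0.435 to 11.2 points. *Lysmd1* went from 10.3% to 15.9%, a difference of 5.62 points (2.56 to 8.68), whereas its mean over CpGs differed by 0.69 ± 3.12 points. *Cnpy2* went from 0.262% to 1.35%, a difference of 1.09 points (0.203 to 2.06). In *Dnmt3b* KO ESCs the largest increase of a mean level was 11.7 points at *1700045I11Rik*, where the Newcombe interval of read shares, from -16.4 to 14.1 points, contained 0. The predicted gene *Gm16253* followed with 11.1 points. Among named genes *Dnahc2*, for an axonemal dynein heavy chain, had 80.7% in WT and 90.5% in the KO, a difference of 9.80 ± 8.88 points over 12 CpGs. By read shares it went from 77.1% to 93.2%, a difference of 16.1 points with a Newcombe interval from 7.97 to 24.0 points, and over the 6 CpGs with at least 10 reads the difference was 17.4 points. *Padi4*, for an enzyme that citrullinates histones, had 56.2% and 63.3%, a difference of 7.15 ± 5.76 points, and *Pdlim2* had 28.5% and 35.3%, a difference of 6.89 ± 5.93 points. By read shares the Newcombe intervals at *Padi4*, from -2.49 to 11.2 points, and at *Pdlim2*, from -3.09 to 9.52 points, contained 0. In *Dnmt3a* KO ESCs *Dnahc2* and *Padi4* had 28.6% and 10.95%.

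The germline list had 12 measured promoters in the class, of 41 annotated genes. Their medians were 80.6% in WT, 20.7% without DNMT3A and 65.5% without DNMT3B, 10 were called lower without DNMT3A and 1 without DNMT3B, and over the class the called shares were 63.2% and 8.86%. Of the 12, 9 were at 50% or more in WT. At such levels 94.8% (50% to under 80%) and 93.3% (80% or more) of the class were called without DNMT3A. *Gtsf1*, *Tdrd9* and *Tdrd7*, of the piRNA pathway, had 96.2%, 94.7% and 94.0% in WT, and 60.3%, 61.8% and 59.3% in *Dnmt3a* KO ESCs. *Sohlh1*, for a transcription factor of germ cells, had 93.5% and 64.3%. *Hormad2*, of the meiotic chromosome axis, went from 84.1% to 12.96%, *Spo11*, whose protein makes meiotic double strand breaks, from 77.1% to 17.6%, and *Piwil2*, for a Piwi protein, from 76.4% to 18.2%. *Cyct*, the cytochrome c of the testis, had 88.3% in WT, 23.2% without DNMT3A and 59.8% without DNMT3B, and was the gene called lower in both KOs. In *Dnmt3b* KO ESCs the other named genes had 59.5% to 88.5%. The list thus held promoters that kept middle levels and promoters that lost most of theirs.

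The pluripotency list had 12 measured promoters of 22 annotated genes, and 7 of them were under 20% in WT, with a list median of 11.7%. The median difference was -8.74 points without DNMT3A and -7.71 without DNMT3B, and 5 promoters were called lower without DNMT3A and 0 without DNMT3B, against 63.2% and 8.86% of the class. These 5 are the ones at 20% or more in WT, where alone a call could arise. *Esrrb*, for an orphan nuclear receptor of the pluripotency network, had 94.4% in WT, 24.2% without DNMT3A and 86.8% without DNMT3B. *Lefty2* and *Lefty1*, for inhibitors of Nodal, had 84.4% and 33.1% in WT, 14.4% and 3.32% without DNMT3A and 72.1% and 16.7% without DNMT3B. *Tcl1*, a coactivator of Akt, had 74.6%, 6.69% and 58.8%, and *Prdm14*, a repressor of *Dnmt3b* transcription, had 36.8%, 1.53% and 24.9%. The window lies at the start of the longest isoform, which need not be the start used in ESCs, and no expression values were analysed here.

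Of 27 imprinted genes 5 had promoters in the class, and 3 were called lower without DNMT3A and 1 without DNMT3B, with called shares of 63.2% and 8.86% over the class. *Rtl1* and *Slc22a2*, at 95.8% and 91.2% in WT, kept 74.6% and 68.2% in *Dnmt3a* KO ESCs. *Htr2a* had 64.6% in WT, 21.7% without DNMT3A and 44.3% without DNMT3B and was the gene called in both. *Impact*, whose paternal copy is expressed and whose maternal copy is methylated, had 51.7% in WT, 34.7% without DNMT3A and 42.4% without DNMT3B, with differences of -16.96 ± 7.95 and -9.28 ± 8.07 points. Over CpGs with at least 10 reads the first of these was -25.7 points. Of the 4 trophoblast genes, *Elf5*, which is silenced by methylation in ESCs, had 94.9%, 59.8% and 85.0%. *Krt8*, a keratin of simple epithelia, had 46.6%, 13.99% and 29.8%, and *Hand1*, a transcription factor of the placenta and heart, had 30.4%, 3.72% and 30.8%, with a difference of 0.319 ± 5.13 points in *Dnmt3b* KO ESCs. None of the 22 annotated genes on the preimplantation list had a promoter in the class.

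Several gene families, among them families of differentiated tissues and copies of ribosomal protein genes, lay mostly in the methylated group. The keratin set was found by symbols that begin with Krt, which can take in genes of keratin-associated proteins. Of its 50 promoters 44 were at 80% or more in WT. The medians were 93.1% in WT, 57.4% without DNMT3A and 85.9% without DNMT3B, and 45 were called lower without DNMT3A and 4 without DNMT3B. Over the class the called shares were 63.2% and 8.86%, and among its promoters at 80% or more in WT, where most promoters of these families lay, they were 93.3% and 6.63%. *Krt17* had 85.1% in WT, 16.97% without DNMT3A and 64.8% without DNMT3B, and *Krt4* had 89.9%, 38.7% and 53.7%. Of 36 olfactory and vomeronasal receptor promoters 33 were at 80% or more, with medians of 91.3%, 60.5% and 86.7%, and 33 and 0 were called lower. *Olfr222* had 83.9%, 25.8% and 71.8%, and *Olfr95* had 39.1%, 4.73% and 21.05%. The 36 ribosomal protein promoters, of which 33 belong to symbols of pseudogene copies, had medians of 91.5%, 56.7% and 84.1%, and 30 and 5 were called lower. Among these copies, whose reads may be shared with their parent genes, *Rpl30-ps6* had 65.7%, 1.65% and 42.9% and *Rps2-ps6* had 80.9%, 36.9% and 55.1%. The 27 promoters found by the first letters of cytokine and chemokine symbols, which take in receptors, had 90.9%, 51.3% and 81.5%, and 23 and 2 were called lower. *Il1rl2*, a receptor of the interleukin 1 family, had 85.3%, 17.9% and 77.5%, and *Il22ra1*, a receptor of interleukin 22, had 70.03%, 18.4% and 40.4%.

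All 19 spermiogenesis promoters were called lower without DNMT3A and 3 were without DNMT3B, against 63.2% and 8.86% of the class, with medians of 89.0% in WT, 45.7% without DNMT3A and 82.2% without DNMT3B. Of the 19, 15 were at 50% or more in WT, where 94.8% (50% to under 80%) and 93.3% (80% or more) of the class were called without DNMT3A. *Spata3* had 62.6%, 10.7% and 37.1%. The 17 protocadherin promoters, which control the choice of clustered adhesion proteins in neurons, had middle levels with medians of 40.5%, 10.9% and 28.2%, and 12 and 4 of them were called lower. *Pcdha11* had 40.5% in WT and was nearly as low in *Dnmt3b* KO as in *Dnmt3a* KO ESCs, at 9.35% and 6.42%, a difference of 2.93 ± 2.87 points. *Pcdhb6* had 76.4%, 23.4% and 55.6%. The neurotransmitter receptor promoters (n = 11) had medians of 64.6%, 21.7% and 47.7%, and 7 and 1 were called lower.

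Other families had low or middle medians. Of 67 *Zfp* promoters 52 were under 20% in WT, with medians of 7.09%, 1.40% and 3.86%, and 15, which are all those at 20% or more, were called lower without DNMT3A and 5 without DNMT3B, against 63.2% and 8.86% of the class. The 12 Hox promoters had medians of 24.5%, 8.91% and 14.4%, with *Hoxc4* at 86.6%, 26.7% and 72.6% and *Hoxb8* at 36.8%, 16.3% and 19.2%. The 8 proteasome and respiratory chain promoters had medians of 18.8%, 1.53% and 8.81%. *Atp5o*, for a subunit of the ATP synthase, had 93.6%, 48.8% and 78.6% at the start of its longest isoform, and *Psmb11*, for the proteasome subunit of the thymus, had 79.8%, 42.2% and 62.4%. Of 3 histone promoters, 2 were under 20% and *Hist1h1t*, for a testis histone, had 66.5%, 21.4% and 51.3%. The 13 cytochrome P450 promoters had medians of 30.6%, 4.26% and 14.02%, with *Cyp2j6* at 30.6%, 0.893% and 4.51% and *Cyp4f39* at 89.6%, 36.2% and 72.2%. The 71 solute carrier promoters measured had medians of 65.4%, 20.4% and 50.7%, close to those of the class, with *Slc7a11*, the cystine transporter gene, at 69.1%, 17.6% and 38.1% and the single-exon gene *Slc25a2* at 83.1%, 15.6% and 52.7%.

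The medians varied between chromosomes less in difference than in level. Over the 14 chromosomes the WT median of the class ranged from 35.5% to 83.2%, the median difference from -30.9 to -21.2 points without DNMT3A and from -8.42 to -5.71 points without DNMT3B. Among promoters at 80% or more in WT, the median ranged from 51.1% to 58.9% without DNMT3A and from 85.1% to 86.9% without DNMT3B, and these ranges did not overlap. Chromosomes are parts of the same merged libraries and are not replicates, so that the ranges do not measure the spread between cultures.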

How the data were processed

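The 9 WGBS libraries came from J1 ESCs of 3 genotypes. The authors aligned reads to mm9 with BSMAP, removed biased bases, clonal reads and overlapping mate segments with BSeQC, and took methylation from the mCall module of MOABS. The tables merge the 3 libraries of a genotype. The deposited counts per CpG are methylated reads and all reads, also by strand, without normalization, and the deposited ratio of each CpG is the fraction of methylated reads, checked against the counts with 0 mismatches. The last row of the WT table was incomplete and was left out. Genes came from the GENCODE annotation of mm9. Promoter methylation was the mean fraction over those CpGs that 3 or more reads covered in all genotypes, for windows with at least 5 such CpGs, and named promoters had at least 10. Intervals of read shares are Wilson, and of their differences Newcombe, at 95%. Intervals of mean levels use the Beta posterior variance of each CpG with a uniform prior. Reads were summed over CpGs, so that a read is counted at each CpG it covers. Such counts are not independent, and PCR reads are not independent molecules. All intervals therefore cover counting error only and can be too narrow. Calls were tested on simulated data for 200 promoters with lowered levels. The genes named are the 6 largest decreases in each KO, the 6 highest in *Dnmt3a* KO, the 6 lowest in *Dnmt3b* relative to *Dnmt3a* KO, the 3 largest increases in each KO, members of short lists at 20% or more in WT (up to 8) and up to 2 examples of each gene family, with predicted genes left out, and some of these genes are not reported here. The promoters and lists were chosen with earlier results of these data known. Alternatives covered the minimum of reads, weighting, strand, window, isoform, CpG count, depth and thresholds. Python 3.11.15, NumPy 2.4.6, SciPy 1.17.1, pandas 2.3.3, pysam 0.24.0 and matplotlib 3.10.9 were used.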

Additional observations from a re-analysis of the deposited data

Results flagged for a closer look

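The 40 promoters on chromosome 4 past the last position of the WT table have values in both KOs and no comparison with WT here. Their median methylation was 38.9% in *Dnmt3b* KO and 13.1% in *Dnmt3a* KO ESCs. The *Dnmt3a* KO level was the lower at 39 of the 40, close to the 95.9% of the 2911 promoters compared above. A level of 50% or more was found at 14 of them in *Dnmt3b* KO and at 7 in *Dnmt3a* KO ESCs, beside 1394 and 767 of the 2911. They were listed because these values lie in data outside the main comparison.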

How the results depend on the processing

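No paired analysis was possible because the 3 libraries of a genotype are merged into 1 value, and for the same reason no replicate could be left out. Counts are held unchanged here within 1.5 times the value reported, and medians within the 95% order-statistic interval of the median. By this measure 100 counts and medians under alternative settings were unchanged, 20 moved and 0 were reversed. The median difference in *Dnmt3b* KO ESCs was -6.94 points by share of methylated reads and -6.06 points within 250 bp of the TSS. Promoters called lower in *Dnmt3b* KO ESCs numbered 952 at a threshold of 10 points and 48 at 30 points, and those in *Dnmt3a* KO ESCs 2292 and 1279. Within 250 bp of the TSS, 359 were called lower in *Dnmt3b* KO ESCs. With a limit of 80% in place of 50%, 10 promoters counted as methylated without DNMT3A and 909 without DNMT3B. Promoters lower by over 10 points in *Dnmt3b* than in *Dnmt3a* KO ESCs numbered 4 on the plus strand, 1 with reads thinned to equal depth and 0 at a threshold of 20 points. Promoters with a DMR in *Dnmt3a* KO and *Dnmt3b* KO ESCs numbered 365 and 10 on the plus strand, 408 and 17 on the minus strand, 489 and 18 within 250 bp, 1180 and 77 with 3 consecutive CpGs, 480 and 4 with a 99% credible interval, and 15 in *Dnmt3b* KO ESCs with thinned reads. Single strands, short windows and thinned reads hold fewer reads or CpGs. Of the values for named promoters, by read share and with at least 10 reads, 242 lay within the counting error and 30 moved, with 0 reversed among those called. *Mfap2*, on 7 CpGs with at least 10 reads, had a difference of 14.7 points in *Dnmt3b* KO ESCs in place of -16.4, and the cause was not tested. A promoter has 1 value per genotype, so that the spread between cultures is unknown.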
